A study of Mus musculus with 6 samples.

Results

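This section follows 60 genes of the mitotic cell cycle in mouse chondrocytes that had or lacked Uhrf1: cyclins and their kinases, mitotic kinases, the anaphase-promoting machinery, mitotic kinesins, spindle and cytokinesis proteins, chromosome condensation proteins and 3 transcription factors. They were chosen by gene symbol, for their known roles, with earlier results of these data known. All 60 were found in a table of 23351 genes. There were 3 libraries of Uhrf1 cKO chondrocytes, from conditional knockout mice, and 3 libraries of Control chondrocytes. In both groups the primary chondrocytes came from C57BL/6 mice at postnatal day 3, whose knee cartilage was digested with collagenase D. All of them were confluent when they received 100 ng/ml recombinant human BMP-2, a growth factor that promotes cartilage differentiation, for 24 hours. The labels and series text do not state what drives the Uhrf1 deletion, how many mice went into a library or which alleles the Control mice carry. Levels are in FPKM (fragments scaled to the length of the transcript and the size of the library), 1 value for each gene and library, and being per length they allow levels of different genes to be compared.

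A dividing cell is carried through its cycle by cyclins, which switch on cyclin-dependent kinases and are then destroyed. D-type cyclins with Cdk4 and Cdk6 act in G1, E-type cyclins with Cdk2 act at the entry to S phase, and A- and B-type cyclins with Cdk1 drive mitosis. The transcripts of most mitotic genes are made late in the cycle, in G2 and M, under the control of the MuvB complex with Mybl2 and Foxm1. In postnatal cartilage, proliferating chondrocytes form the columns of the growth plate and leave the cycle as they mature. Uhrf1 binds hemimethylated DNA at replication forks and brings in the methyltransferase Dnmt1.

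The deletion showed in the targeted gene itself. Uhrf1 stood at 3.22, 3.17 and 2.73 FPKM in the cKO libraries, against 28.2, 22.9 and 30.6 FPKM in the Control libraries. The cartilage markers were abundant in both groups, with Col2a1, the main cartilage collagen, at 4675 FPKM on average in cKO and 7047 FPKM in Control. Between 11551 and 11635 genes reached 1 FPKM in each cKO library, against 11233 to 11268 in the Control libraries. Markers of skeletal muscle and of chondrocytes moved with genotype. All 8 skeletal muscle markers were higher in cKO, with a summed level of 83.5 to 149 FPKM per cKO library, against 0.338 to 2.87 FPKM per Control library. Of 7 chondrocyte markers 6 were lower in cKO, summing to 6468 to 7009.5 FPKM per cKO library and 9647 to 12782 FPKM per Control library. Of 7 macrophage and leukocyte markers in the table, 5 passed the filter and Fcer1g was called, higher in cKO. The sums overlapped, at 27.3 to 37.1 FPKM in cKO and 9.85 to 49.7 FPKM in Control. The other 4 tested were not called. Cd14, Cd68 and Csf1r averaged higher in cKO, while Lyz2 averaged 9.65 FPKM in cKO and 25.5 FPKM in Control. The authors' deposited table called Lyz2 lower (q = 0.00052). The muscle regulators Myog and Myod1 and the cardiac actin Actc1 were at 0 in every Control library. The 5 endothelial markers summed to under 1 FPKM in every library, with Tie1 at 0 throughout. The part of these markers in the results on mitotic genes was not tested. The Y-linked transcript Ddx3y was above 0 in cKO 1, Control 1 and Control 3 only. Library names have 1 prefix in cKO and another in Control, and its meaning, which the labels do not give, cannot be told apart from the genotype effect.

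Most members outside the G1 and G1/S role were lower in cKO chondrocytes, 42 of 52, while 6 of 8 G1 cyclins and kinases were not called. The median fall among all members called lower was 1.81-fold. Of the 60 members 43 were lower and 1 was higher in cKO (limma on log2(FPKM + 1), adjusted p under 0.05 over 11911 tested genes), and 16 were not called. Over all tested genes 7.96% were called lower and 9.81% higher. All 60 members had at least 1 FPKM in all 6 libraries, so none entered the test through 1 group alone. In 49 members all 3 cKO values lay below all 3 Control values, and in 2 members all lay above. Over all tested genes the shares were 17.5% and 18.4%. The median log2 ratio of group means was -0.75 over the 60 members, a 1.68-fold lower level, and -0.01 over all tested genes. Members share the same libraries, so these counts are not independent of each other. In bulk RNA, fewer dividing cells and less of a transcript per dividing cell cannot be told apart.

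**Figure D1:**
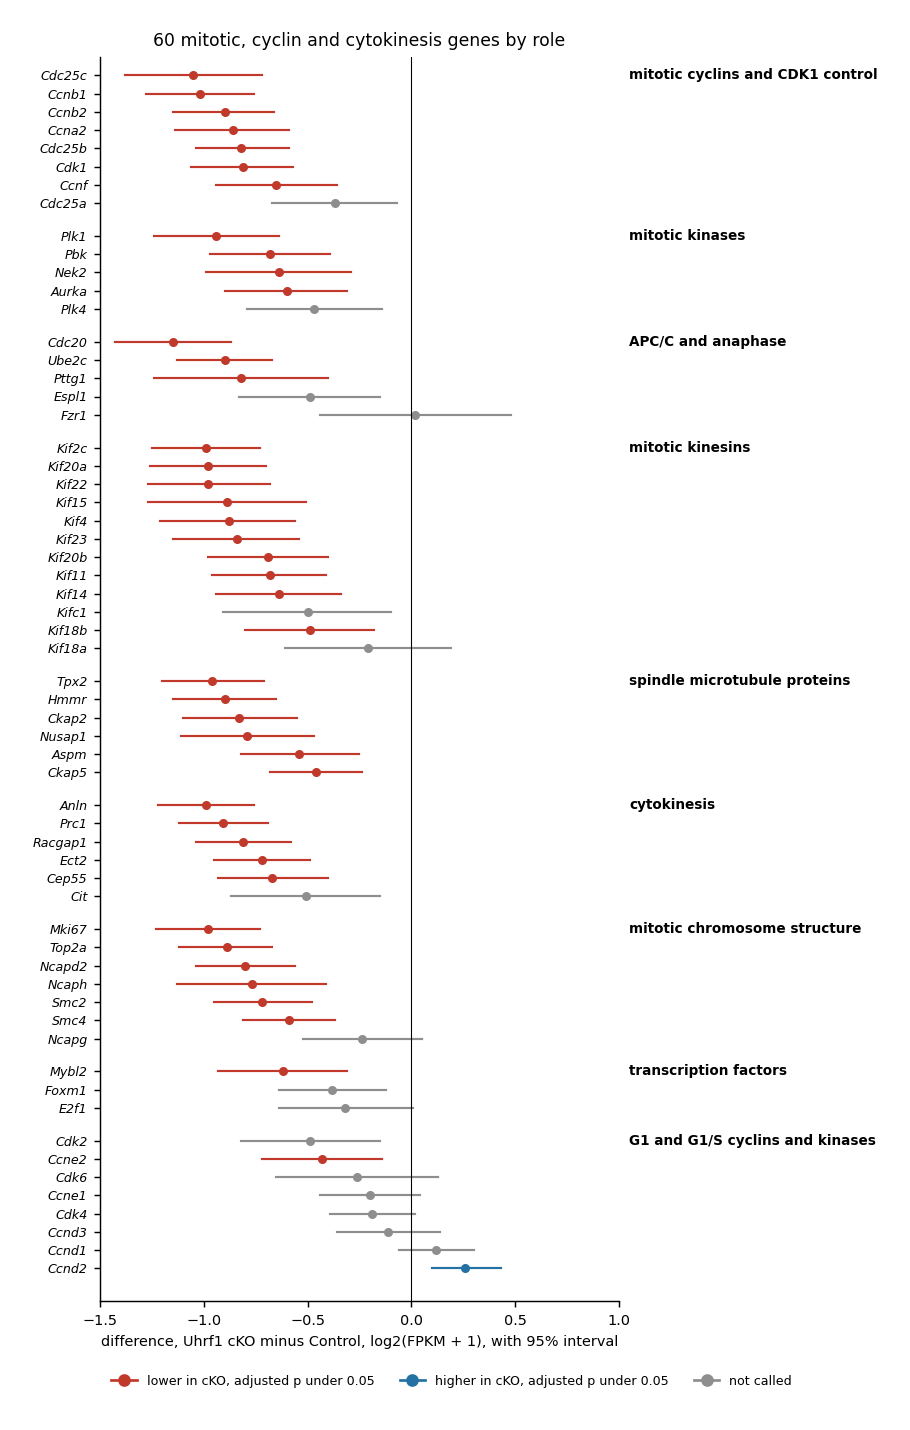
Difference of each of the 60 genes between Uhrf1 cKO and Control on the log2(FPKM + 1) scale, grouped by role. Points are limma estimates (n = 3 libraries per group), bars are 95% intervals, and colours give the call. The 43 lower genes spread over all 9 roles, and the G1 and G1/S role at the bottom holds 1 of them beside the single higher gene, Ccnd2.

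Of the 43 falls 7 reached 2-fold and 40 reached 1.5-fold. Folds ran from 1.396 for Ckap5 to 2.273 for Cdc25c. The middle 21 lay between 1.64- and 1.94-fold. The SD of the log2 ratio of mean FPKM over the 43 genes was 0.167. The median standard error of a single gene's difference was 0.124, on the log2(FPKM + 1) scale, so the values are not on the same scale. Only called genes entered, which leaves out small falls, and over the 60 members the log2 ratio ran from -1.18 to 0.27. A difference of at least 0.5 on the log2(FPKM + 1) scale was reached by 40 lower members, where 4.34% of all tested genes did so. A difference of at least 1 was reached by 3, Cdc20, Cdc25c and Ccnb1, where 0.63% of all tested genes did so. The authors' deposited table called 49 of the 59 members that it tested lower and 0 higher (q under 0.05). Among the 9698 genes that it tested and that also passed the filter on level used here, it called 11.2% lower and 11.7% higher. It shared 42 of the 43 lower calls. Without any single library 36 of the 43 calls held.

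The libraries differed among themselves in the same way for most of these genes. The median level of the 43 lower genes, as a percentage of each gene's Control mean, was 52.5% in cKO 1, 62.5% in cKO 2 and 50.7% in cKO 3, against 105%, 92.0% and 103% in Control 1, 2 and 3. Thus cKO 2 had the mildest fall, and Control 2 was the lowest of the Control libraries. In 37 of the 43 genes cKO 2 was the highest cKO library, where that held for 35.8% of all tested genes. In 37 of the 60 members Control 2 was the lowest Control library, where that held for 30.5% of all tested genes. In every role the highest cKO median was below the lowest Control median, by the smallest margin in the G1 role, at 94.7% in cKO 3 against 95.3% in Control 1.

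**Figure D2:**
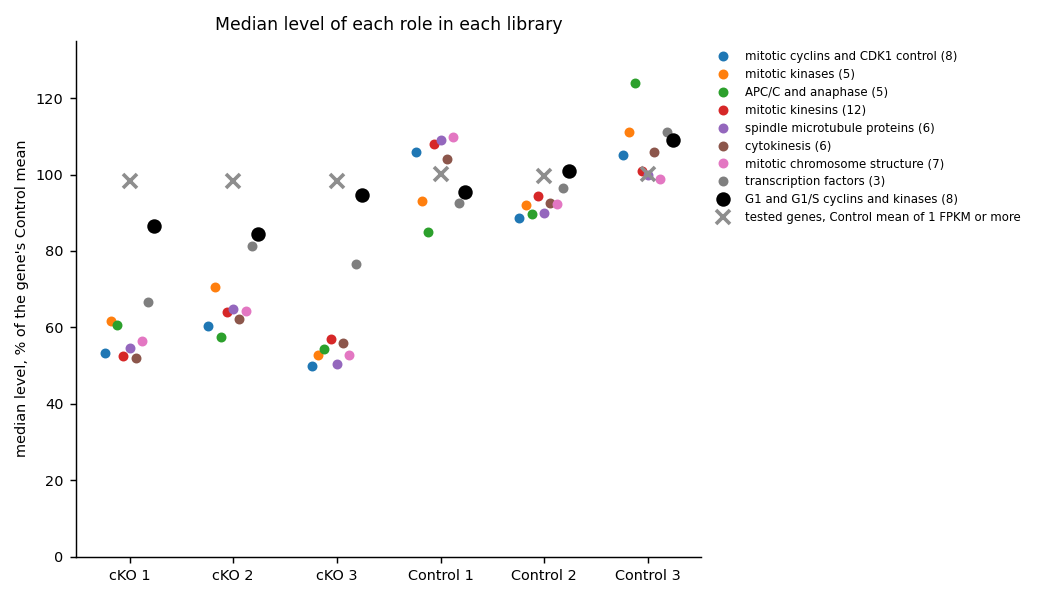
Median level of each role in each library, as a percentage of each gene's mean over the 3 Control libraries (number of genes in brackets). Medians of 7 roles lie between 49.9% and 70.7% in the cKO libraries, the transcription factors reach 66.6% to 81.3% and the G1 role 84.4% to 94.7%, while tested genes with a Control mean of at least 1 FPKM lie at 98.2% to 98.3%.

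Most promoter windows of the lower genes held a short element known from late cell cycle promoters. Windows of 300 bases, 250 before to 50 after the transcript start, were available from RefSeq (GRCm38.p6) for 50 members. Ccna2, Cdc25c, Ccnd1, Ccnd2, Ccne2, Pbk, Kif20a, Tpx2, Smc4 and Foxm1 had none. The cell cycle homology region (CHR), a site bound by MuvB, was searched on both strands as TTTGAA or TTCGAA, the CCAAT box bound by NF-Y as CCAAT, and E2F sites as TTTCGCGC, TTTGGCGC, TTTCCCGC or TTCCCGCC. Below are the 3 lower genes of highest Control level that held a CHR and at least 2 CCAAT boxes, then the 2 G1 genes with windows whose ratio was nearest to or above 1. Capitals mark every match in either orientation, so a CHR can read TTCAAA and a CCAAT box ATTGG.
Top2a: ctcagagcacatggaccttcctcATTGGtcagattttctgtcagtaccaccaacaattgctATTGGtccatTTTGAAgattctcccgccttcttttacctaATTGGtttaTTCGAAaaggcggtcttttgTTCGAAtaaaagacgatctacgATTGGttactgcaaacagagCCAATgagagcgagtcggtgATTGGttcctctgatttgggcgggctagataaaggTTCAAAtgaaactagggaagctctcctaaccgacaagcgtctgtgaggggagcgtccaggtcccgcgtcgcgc
Ube2c: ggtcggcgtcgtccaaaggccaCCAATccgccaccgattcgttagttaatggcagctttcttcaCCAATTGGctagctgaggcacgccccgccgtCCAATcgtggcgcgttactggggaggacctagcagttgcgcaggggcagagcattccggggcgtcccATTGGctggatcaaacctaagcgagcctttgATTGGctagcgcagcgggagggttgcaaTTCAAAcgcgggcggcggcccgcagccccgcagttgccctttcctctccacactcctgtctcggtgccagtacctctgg
Cdc20: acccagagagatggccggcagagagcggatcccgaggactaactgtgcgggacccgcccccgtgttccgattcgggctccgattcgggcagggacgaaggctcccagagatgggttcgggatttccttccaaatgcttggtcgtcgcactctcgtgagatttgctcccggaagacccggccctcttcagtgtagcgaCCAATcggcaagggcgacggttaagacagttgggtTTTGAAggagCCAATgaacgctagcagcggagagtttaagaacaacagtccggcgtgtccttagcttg
Ccnd3: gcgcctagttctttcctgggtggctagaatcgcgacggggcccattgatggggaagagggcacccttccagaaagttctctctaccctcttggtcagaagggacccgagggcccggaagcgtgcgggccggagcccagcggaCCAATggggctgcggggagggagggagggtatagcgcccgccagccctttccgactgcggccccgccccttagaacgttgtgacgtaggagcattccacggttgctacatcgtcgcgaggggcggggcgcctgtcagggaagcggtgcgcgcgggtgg
Cdk4: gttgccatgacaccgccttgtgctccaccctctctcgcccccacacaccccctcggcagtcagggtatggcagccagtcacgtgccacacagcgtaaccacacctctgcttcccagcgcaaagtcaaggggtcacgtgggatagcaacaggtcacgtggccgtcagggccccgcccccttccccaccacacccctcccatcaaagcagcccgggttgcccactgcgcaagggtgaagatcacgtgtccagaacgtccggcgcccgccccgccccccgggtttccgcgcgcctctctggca

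Top2a (chr11:99024140-99024439, minus strand) held 4 CHR matches and 6 CCAAT boxes. Ube2c (chr2:164769679-164769978, plus strand) held 1 CHR match, starting 29 bases before the transcript start, and 6 CCAAT boxes, of which a pair overlaps in CCAATTGG. Cdc20 (chr4:118437294-118437593, minus strand) held 1 CHR match, 18 bases before the start, with 1 CCAAT box on either side of it. Ccnd3 (chr17:47593217-47593516, plus strand) held 1 CCAAT box and no CHR in the window shown, 1 of 2 for this gene, and Cdk4 (chr10:127063285-127063584, plus strand) held none of the 3 elements. The listed letters were not found in the windows of Ccne1 and Cdk6 either.

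Over the 36 lower members with a window, 30 (83.3%) held a CHR, against 3 of the 14 other members (21.4%) and 16.1% of 8883 tested genes with a window. None of the 5 G1 members with a window held one, and all 5 are among the 14. Outside the G1 role 33 of 45 members (73.3%) held a CHR, called lower or not. The members were chosen for known cell cycle roles, and the CHR is known from late cell cycle promoters. These shares are thus not independent of that choice. At least 2 CCAAT boxes stood in 18 of the 36 (50%), against 2 of the 14 (14.3%) and 17.1% of tested genes. A CHR together with at least 2 CCAAT boxes stood in 16 of the 36 (44.4%), against 2.68% of tested genes. E2F letters stood in 3 of the lower 36 (8.33%), against 4 of the 14 (28.6%) and 7.86% of tested genes. Over all 27025 genes with a window the shares were 21.7% for a CHR, 13.3% for at least 2 CCAAT boxes and 4.0% for E2F. Of the CHR matches in lower members 25.5% began in the 50 bases before the start, against 12.8% of those in tested genes. Matches that began after the start, as in Plk1, Aurka, Anln and Cep55, were not among the 25.5%, and their share was not computed. The 33 members with a CHR had a median fold of 1.77 lower, and the 12 without one outside the G1 role 1.61. The lower members without a CHR were Ccnb1, Nek2, Pttg1, Nusap1, Ncaph and Mybl2, and the members with a CHR that were not called were Espl1, Kifc1 and Ncapg. Where a gene had 2 windows, a match in either counted. A match describes the letters of a window and not binding, and none of these shares was tested.

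**Figure D3:**
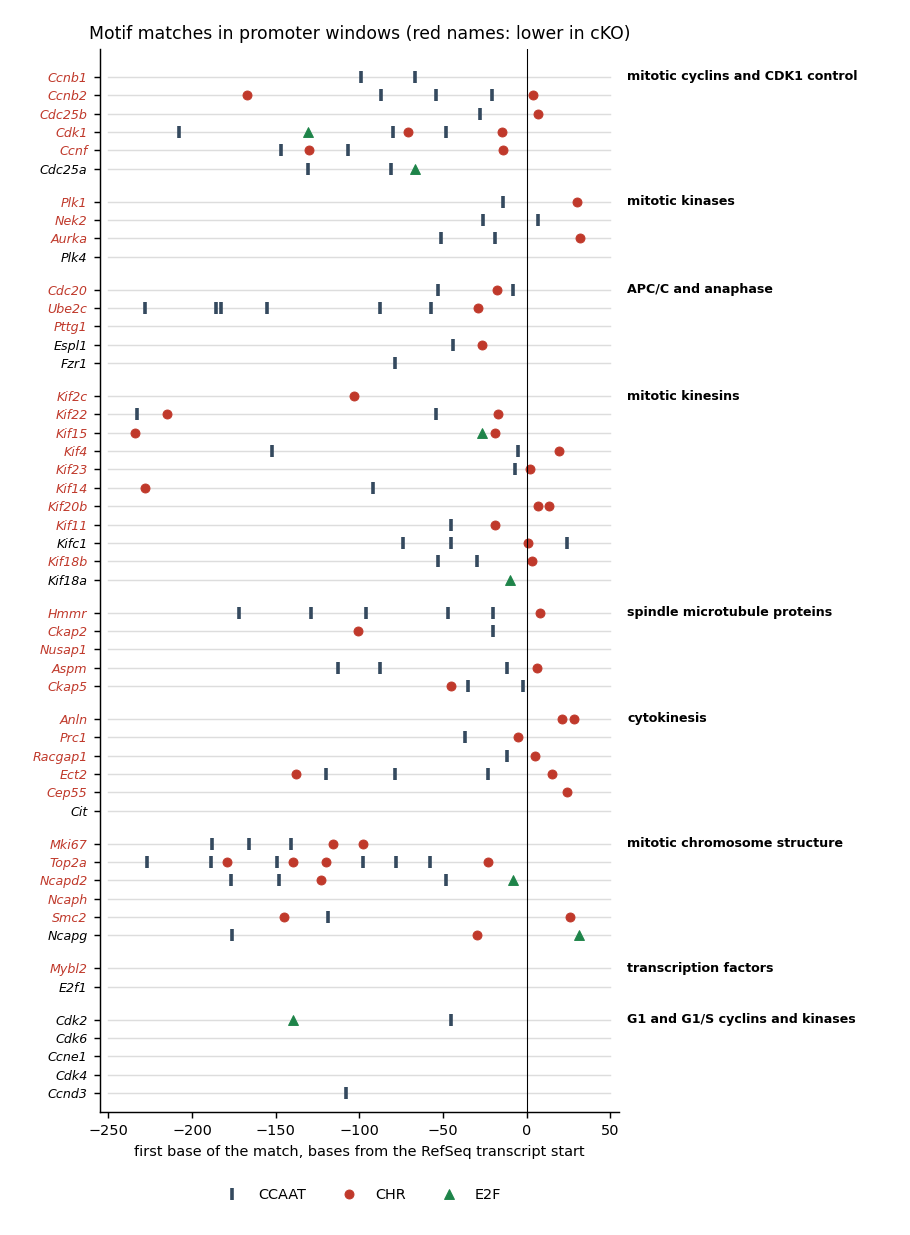
Matches to the CHR, CCAAT and E2F letters in the promoter windows of the 50 members with a RefSeq window, by distance of the match's first base from the transcript start. Red names mark genes called lower in cKO. A CHR stands in 30 of 36 red genes and in none of the 5 genes of the G1 and G1/S role at the bottom.

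Among the mitotic cyclins and the controls of Cdk1, 7 of 8 genes were lower in cKO and all 8 had groups that did not overlap. Ccnb1 (cyclin B1, which brings Cdk1 into mitosis; chromosome 13, 100778739 to 100786486, mm10) stood at 35.1, 44.0 and 33.8 FPKM in cKO 1, 2 and 3, against 81.3, 68.7 and 80.7 FPKM in Control 1, 2 and 3. The highest cKO library was thus well under the lowest Control library. Its fold was 2.046 lower, a difference of -1.02 ± 0.117 on the log2(FPKM + 1) scale (standard error; limma, adjusted p = 0.000402). Cdk1, the mitotic kinase itself, stood at 43.9, 54.8 and 41.9 FPKM in cKO, against 86.4, 77.2 and 84.7 FPKM in Control. Like Ccnb1 it was highest in cKO 2 and lowest in Control 2 within the groups, and its fall was 1.764-fold (limma difference -0.81, standard error 0.109, adjusted p = 0.000976).

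Cdc25c, a phosphatase that activates Cdk1, had the largest fall of the 60 genes in the ratio of means. It stood at 4.3, 5.85 and 5.4 FPKM in cKO, against 13.6, 10.2 and 11.5 FPKM in Control, 2.273-fold lower (limma difference -1.05, standard error 0.147, adjusted p = 0.00124). The remaining genes of this role were all lower on average in cKO. Ccnb2 stood at 28.1, 29.8 and 24.8 FPKM in cKO, against 56.8, 46.0 and 54.6 FPKM in Control, 1.904-fold lower. Cdc25b, another Cdk1-activating phosphatase, stood at 9.79, 10.6 and 9.51 FPKM in cKO, against 17.7, 17.8 and 19.4 FPKM in Control, 1.836-fold lower. Neither gene's groups overlapped, but the deposited interval of Cdc25b spans 12 other listed genes. Ccna2 (cyclin A2) also fell 1.836-fold, and Ccnf, a cyclin-like subunit of a ubiquitin ligase, 1.615-fold. Cdc25a, a phosphatase that also acts at the G1/S step, was not called, at 6.89, 8.39 and 7.32 FPKM in cKO and 10.7, 8.49 and 11 FPKM in Control (limma difference -0.37, 95% interval -0.67 to -0.07, adjusted p = 0.0882). The authors' deposited table called it lower (q = 0.0209).

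**Figure D4:**
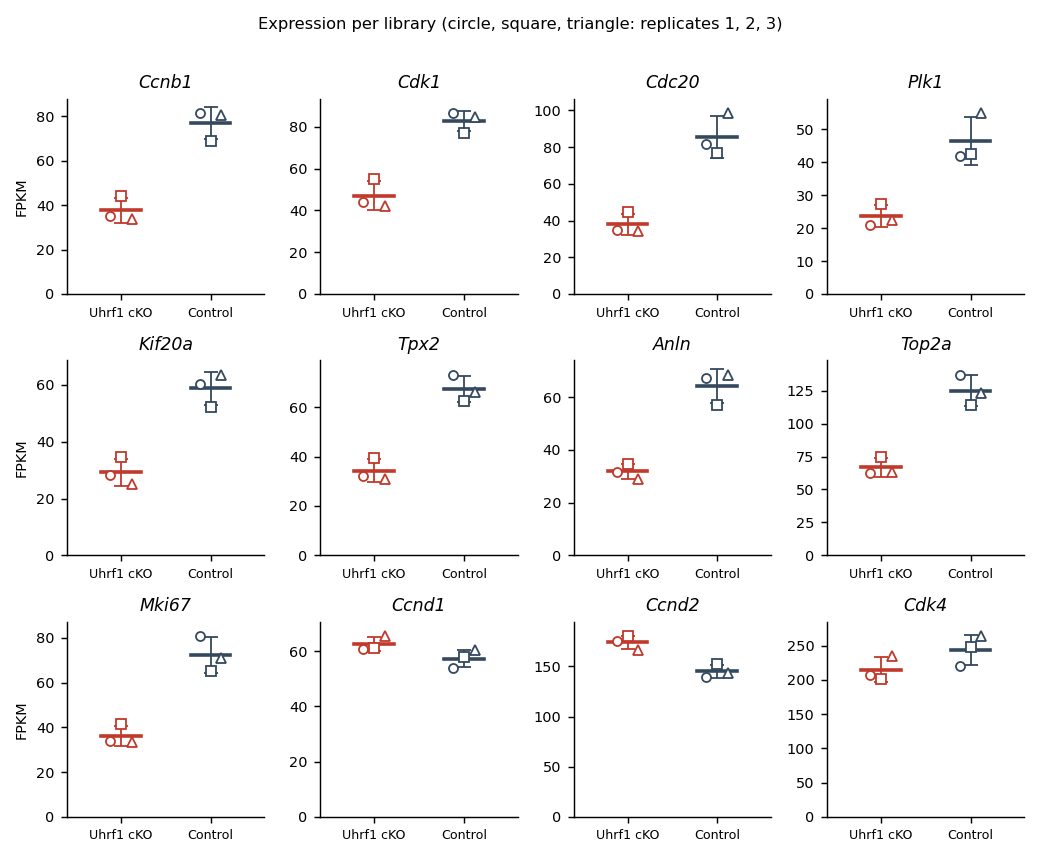
FPKM of 12 members in each library, Uhrf1 cKO left and Control right in each panel, with axes from 0. Symbols are replicates 1, 2 and 3, thick bars are means and whiskers are SDs (n = 3). In the 9 mitotic genes from Ccnb1 to Mki67 every cKO value lies under every Control value, while Ccnd2 lies above and Cdk4 overlaps.

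Of the 8 G1 and G1/S genes 1 was lower, 1 was higher and 6 were not called. Ccnd2 (cyclin D2; chromosome 6, 127125709 to 127212419, mm10), the most highly expressed cyclin of the list, stood at 175, 180.2 and 166 FPKM in cKO, against 139, 152 and 143 FPKM in Control. Every cKO library was above every Control library, and the rise was 1.202-fold (limma difference 0.26, standard error 0.072, adjusted p = 0.0336). That call was lost without any 1 of cKO 1, 2 or 3 or Control 1 or 3 (adjusted p = 0.0582 to 0.122), and the authors' deposited table did not call it (q = 0.117). Ccnd1 stood at 60.7, 61.3 and 65.4 FPKM in cKO, against 54.0, 57.7 and 60.3 FPKM in Control. Its groups did not overlap, by a margin smaller than the spread within either group, and it was not called (limma difference 0.12, 95% interval -0.06 to 0.30, adjusted p = 0.34). Ccnd3 overlapped, at 43.9, 41.9 and 43.7 FPKM in cKO and 39.3, 49.0 and 52.4 FPKM in Control (95% interval -0.36 to 0.14).

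The kinases that D-type cyclins bind were not called either. Cdk4, the most abundant of the 60 transcripts, stood at 207, 202 and 235 FPKM in cKO, against 221, 248 and 264 FPKM in Control (limma difference -0.19, 95% interval -0.39 to 0.02, adjusted p = 0.202). Cdk6 was low, at 2.2, 3.09 and 3.86 FPKM in cKO and 3.67, 3.92 and 3.75 FPKM in Control (95% interval -0.65 to 0.13). The groups of both genes overlapped. Cdk2, the kinase of S phase entry, stood at 18.6, 21.7 and 15.8 FPKM in cKO, against 29.1, 21.5 and 29.3 FPKM in Control, where Control 2 fell within the cKO range. It was not called (limma difference -0.49, 95% interval -0.82 to -0.15, adjusted p = 0.052), but was called lower without cKO 2 (adjusted p = 0.0421) or Control 2 (adjusted p = 0.0223), with a filter of 5 FPKM (adjusted p = 0.0477), and in the authors' deposited table (q = 0.00052). Ccne2 stood at 7.23, 8.05 and 7.62 FPKM in cKO, against 11.2, 8.91 and 12 FPKM in Control, and its call (adjusted p = 0.0487) was lost without any 1 of the libraries other than Control 2 (adjusted p = 0.0893 to 0.138). Ccne1 stood at 21.1, 20.5 and 19.9 FPKM in cKO and 22.1, 21.9 and 27.3 FPKM in Control, and was not called (95% interval -0.44 to 0.04).

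Sums over cyclin classes showed opposite directions. The A- and B-type transcripts Ccna2, Ccnb1 and Ccnb2 summed to 104, 125 and 98.2 FPKM in cKO 1, 2 and 3, against 226, 184 and 219.6 FPKM in Control 1, 2 and 3. The D-type transcripts summed to 279, 283 and 276 FPKM in cKO, against 233, 258 and 256 FPKM in Control. The ratio of Ccnb1 to Ccnd2 was 0.201, 0.244 and 0.203 in cKO, against 0.584, 0.453 and 0.565 in Control. Both sums and the ratio separated the groups in all 6 libraries. For the A- and B-type sum and for the ratio this had to follow, since each gene in them already separated the groups. The ratio sets a gene called lower against the only member called higher, so it describes these same values and is no further test. Within the D-type sum Ccnd3 went the other way, averaging 43.1 FPKM in cKO and 46.9 FPKM in Control. With 3 libraries a group a permutation p cannot fall under 0.10.

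Of 5 mitotic kinases 4 were lower in cKO. Plk1, a kinase that acts from mitotic entry to cytokinesis, stood at 21.0, 27.4 and 22.5 FPKM in cKO, against 41.9, 42.5 and 54.8 FPKM in Control. It fell 1.962-fold (limma difference -0.94, standard error 0.133, adjusted p = 0.00129). Aurka, the kinase of spindle poles, stood at 29.5, 38.4 and 27.4 FPKM in cKO, against 44.2, 47.3 and 53.6 FPKM in Control, 1.523-fold lower. Its call was lost without cKO 3 (adjusted p = 0.0549). Pbk, a kinase active in mitosis, stood at 38.1, 43.5 and 32.7 FPKM in cKO, against 72.0, 57.3 and 55.9 FPKM in Control, 1.622-fold lower. Aurka and Pbk were both highest in cKO 2 among the cKO libraries. Nek2, a centrosome kinase, stood at 11.1, 13.4 and 8.69 FPKM in cKO, against 16.4, 16.2 and 20.2 FPKM in Control, 1.59-fold lower, with its call lost without cKO 1, cKO 3 or Control 3 (adjusted p = 0.0574, 0.0725 and 0.0631) or with Ddx3y as a covariate (adjusted p = 0.0538). Plk4, which starts centriole duplication, stood at 10.2, 10.4 and 10.1 FPKM in cKO, against 17.9, 11.8 and 14.5 FPKM in Control. Its groups did not overlap, yet it was not called (95% interval -0.79 to -0.14, limma adjusted p = 0.0519), but was called lower without Control 2 (adjusted p = 0.0193) or with a filter of 5 FPKM (adjusted p = 0.0473), and the authors' deposited table called it lower (q = 0.00052).

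Of the 5 genes of the APC/C and anaphase 3 were lower and 2 were not called. Cdc20, the activator that turns the anaphase-promoting complex on in mitosis (chromosome 4, 118428093 to 118437343, mm10), stood at 35.0, 44.5 and 34.5 FPKM in cKO, against 81.5, 76.8 and 98.4 FPKM in Control. At 2.25-fold lower it had the largest limma difference of the 60 genes (-1.15, standard error 0.125, adjusted p = 0.000301). Its interval overlaps the neighbouring gene Elovl1. Fzr1, the activator that takes over from Cdc20 and keeps the APC/C on in G1, stood at 14.2, 14.9 and 16.1 FPKM in cKO, against 10.8, 13.8 and 21.7 FPKM in Control. The cKO values lay inside the Control range, with a ratio of means of 0.976 and a limma difference of 0.02 (95% interval -0.44 to 0.48), so the sign of its difference depends on the scale. Ube2c, the ubiquitin-conjugating enzyme of the APC/C, stood at 50, 60.1 and 56.8 FPKM in cKO, against 97.2, 98.8 and 118 FPKM in Control, 1.879-fold lower (limma adjusted p = 0.00041).

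For the cohesin-cutting protease separase and its inhibitor all cKO values lay below all Control values. Pttg1 (securin, the inhibitor) stood at 33.2, 31.3 and 25.4 FPKM in cKO, against 44.2, 46.4 and 74.0 FPKM in Control, 1.832-fold lower, with Control 3 well above the rest. Its call was lost without cKO 3 (limma adjusted p = 0.0633). Espl1 (separase) stood at 5.3, 6.23 and 5.84 FPKM in cKO, against 7.33, 7.83 and 10.7 FPKM in Control. It was not called (95% interval -0.83 to -0.15, limma adjusted p = 0.0538) but was without Control 1 (adjusted p = 0.0374), and the authors' deposited table called it lower (q = 0.00052).

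Kinesins are motors that walk along or take apart microtubules, and 10 of the 12 mitotic kinesins were lower in cKO. Kif2c, which removes tubulin at kinetochores, stood at 12.6, 16.9 and 13.4 FPKM in cKO, against 29.0, 29.2 and 29.4 FPKM in Control. The Control libraries were nearly equal, and the fall was 2.045-fold (limma difference -0.99, standard error 0.115, adjusted p = 0.000432). Kif22, a chromosome-arm motor, stood at 15.5, 22.2 and 17.9 FPKM in cKO, against 35.2, 35.7 and 40.4 FPKM in Control, 2.001-fold lower. Kif20a, a motor of the central spindle, stood at 28.3, 34.5 and 25.1 FPKM in cKO, against 60.3, 52.1 and 63.5 FPKM in Control, 2.001-fold lower. Its interval on chromosome 18 overlaps Brd8 and Cdc23.

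Kif15, which helps keep the spindle bipolar, stood at 4.65, 6.65 and 7.34 FPKM in cKO, against 14.1, 10.6 and 12.1 FPKM in Control, 1.975-fold lower. Kif4, an X-linked motor of chromosomes and the midzone, stood at 7.94, 11.8 and 9.18 FPKM in cKO, against 20.7, 17.7 and 16.9 FPKM in Control, 1.917-fold lower. Kif23, a subunit of centralspindlin, stood at 16.5, 18.9 and 13.0 FPKM in cKO, against 32.3, 27.4 and 28.8 FPKM in Control, 1.825-fold lower. None of these groups overlapped. The remaining lower kinesins were Kif14, Kif20b, Kif11 (the bipolar spindle motor) and Kif18b, with folds of 1.729, 1.678, 1.63 and 1.445. The call of Kif18b was lost without cKO 1, cKO 3, Control 2 or Control 3 (limma adjusted p = 0.0771 to 0.122).

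The other two mitotic kinesins were not called. Kifc1, a minus-end motor that gathers spindle poles, stood at 13.1, 13.4 and 14.5 FPKM in cKO, against 14.2, 21.3 and 25.5 FPKM in Control, where Control 1 alone reached the cKO range. It was called lower without Control 1 (limma adjusted p = 0.00407, against 0.0858 with all libraries) and in the authors' deposited table (q = 0.00052). Kif18a, which dampens chromosome movements, stood at 4.97, 5.75 and 5.45 FPKM in cKO, against 7.13, 4.59 and 7.89 FPKM in Control, and Control 2 was the lowest of all 6 (95% interval -0.61 to 0.19). Of 17 transport kinesins and light chains, which carry cargo outside mitosis, 14 passed the filter, with a median log2 ratio of 0.12. Of these 0 were called by limma, 0 had an unadjusted p under 0.05 and 0 were called in the authors' deposited table. Kif5b averaged 43.9 ± 1.42 FPKM in cKO and 43.7 ± 2.76 FPKM in Control, and Klc1 averaged 36.0 ± 0.947 FPKM in cKO and 34.4 ± 5.17 FPKM in Control (SD, n = 3).

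All 6 spindle microtubule proteins were lower in cKO. Tpx2, which activates Aurka on spindle microtubules, stood at 32.2, 39.5 and 31.0 FPKM in cKO, against 73.1, 62.5 and 66.2 FPKM in Control. It fell 1.964-fold (limma difference -0.96, standard error 0.109, adjusted p = 0.000397). Hmmr, a spindle assembly protein, stood at 19.4, 23.2 and 19.0 FPKM in cKO, against 42.5, 34.8 and 40.1 FPKM in Control, 1.91-fold lower. Ckap2 stood at 25.4, 23.4 and 19.8 FPKM in cKO, against 41.5, 35.9 and 46.5 FPKM in Control, 1.807-fold lower. No group overlapped in these genes. Nusap1, a microtubule bundler, stood at 15.9, 23.2 and 17.1 FPKM in cKO, against 36.5, 29.8 and 32 FPKM in Control, 1.751-fold lower, and its interval overlaps Oip5. Aspm, a spindle-pole protein, fell 1.513-fold, a call lost without cKO 1 or cKO 3 (limma adjusted p = 0.0652 and 0.058). Ckap5, a microtubule polymerase that also works outside mitosis, had the smallest fall of the 43, at 1.396-fold.

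Of the 6 cytokinesis genes 5 were lower in cKO. Anln (anillin, a scaffold of the contractile ring) stood at 31.8, 34.8 and 29.0 FPKM in cKO, against 67.1, 56.9 and 68.5 FPKM in Control. Its fall of 2.015-fold had the lowest adjusted p of the 60 genes (limma difference -0.99, standard error 0.103, adjusted p = 0.000235), though its deposited interval spans 14 other listed genes. Prc1, which bundles the microtubules of the midzone, stood at 50.8, 55.7 and 43.7 FPKM in cKO, against 96.7, 91.2 and 95 FPKM in Control, 1.884-fold lower. The Control libraries of Prc1 were close to each other, and every cKO library was far below them. Racgap1, the partner of Kif23 in centralspindlin, stood at 31.6, 39.9 and 35.5 FPKM in cKO, against 59.3, 62.1 and 68.2 FPKM in Control, 1.772-fold lower. Ect2, the exchange factor that activates RhoA at the furrow, stood at 15.5, 17.5 and 15.1 FPKM in cKO, against 28.0, 24.6 and 28.6 FPKM in Control, 1.69-fold lower. Cep55, an abscission protein, fell 1.642-fold. Cit (citron kinase, a midbody protein) was the lowest transcript of the 60, at 1.5, 2.25 and 1.95 FPKM in cKO and 3.24, 2.92 and 3.15 FPKM in Control. The groups did not overlap and it was not called (95% interval -0.87 to -0.15, limma adjusted p = 0.0573), and the authors' deposited table did not test it.

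Genes of mitotic chromosome structure were lower in 6 of 7 cases. Top2a (topoisomerase II alpha, which untangles sister chromatids; chromosome 11, 98992947 to 99024189, mm10) stood at 62.5, 75 and 62.9 FPKM in cKO, against 137, 114 and 123 FPKM in Control. It fell 1.87-fold (limma difference -0.89, standard error 0.10, adjusted p = 0.00036). Mki67, the proliferation antigen Ki-67 that coats mitotic chromosomes, stood at 34.0, 41.3 and 33.3 FPKM in cKO, against 80.8, 65.2 and 71.0 FPKM in Control, 1.998-fold lower (limma adjusted p = 0.000402). In both genes cKO 2 was the highest cKO library and Control 1 the highest Control library. Smc2 and Smc4, the core of both condensin complexes, fell 1.677- and 1.524-fold. Of the condensin I subunits, Ncapd2 stood at 26.2, 33.0 and 26.7 FPKM in cKO, against 47.6, 50.2 and 53.5 FPKM in Control, 1.761-fold lower. Ncaph stood at 20.6, 16.4 and 12.1 FPKM in cKO, against 28.5, 27.4 and 28.3 FPKM in Control, 1.713-fold lower and with an uneven cKO group. Ncapg stood at 18.3, 16.7 and 15.6 FPKM in cKO, against 21.7, 16.6 and 22.4 FPKM in Control, where Control 2 lay in the cKO range, and was not called (95% interval -0.52 to 0.05). Its deposited interval overlaps Lcorl and Gm3414.

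Of the 3 transcription factors 1 was lower and 2 were not called. Mybl2 (B-Myb, the partner of MuvB) stood at 4.09, 5.48 and 4.93 FPKM in cKO, against 7.33, 7.65 and 8.79 FPKM in Control. It fell 1.64-fold (limma difference -0.62, standard error 0.138, adjusted p = 0.0141), a call lost without cKO 1 (adjusted p = 0.0526). Foxm1, the forkhead factor of G2 and M phase genes, stood at 12.6, 15.4 and 15 FPKM in cKO, against 18.7, 17.2 and 21.0 FPKM in Control. The groups did not overlap, with a ratio of 0.756, and it was not called (95% interval -0.64 to -0.12, limma adjusted p = 0.051), but was called lower with a filter of 5 FPKM (adjusted p = 0.0473). E2f1, a regulator of S phase genes, stood at 11.5, 13.4 and 12.1 FPKM in cKO, against 12.4, 18.5 and 16.4 FPKM in Control, where Control 1 lay in the cKO range. It was not called (95% interval -0.64 to 0.01, adjusted p = 0.169) but was called lower without Control 1 (adjusted p = 0.0259). The authors' deposited table called both Foxm1 (q = 0.0059) and E2f1 (q = 0.0493) lower.

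Further genes of the same pathways were read from 10 lists, beside 7.96% called lower and 9.81% called higher among all tested genes. Of 12 chromosomal passenger and checkpoint genes 10 were lower in cKO and none higher, with a median log2 ratio of -0.71. Mad2l1, which holds back Cdc20, averaged 23.5 ± 2.75 FPKM in cKO and 46.3 ± 5.27 FPKM in Control (SD, n = 3). The checkpoint kinase Bub1 averaged 9.68 ± 1.15 FPKM in cKO and 18.7 ± 2.02 FPKM in Control, and Birc5 (survivin) averaged 57.3 ± 5.06 FPKM in cKO and 105 ± 6.64 FPKM in Control. All 3 fell, by 1.97-, 1.927- and 1.837-fold. Of 19 other spindle genes 12 were lower and none higher, with a median of -0.68. The largest falls there were those of Fam83d, Spag5 and Tacc3, at 1.962-, 1.908- and 1.887-fold (limma adjusted p = 0.00662, 0.000406 and 0.000206). Of 14 augmin and gamma-tubulin genes 6 were lower, with a median of -0.36, led by Haus4, Haus1 and Haus8 at 1.668-, 1.46- and 1.434-fold. Of 3 subunits of condensin II, 2 were lower, Ncapg2 1.563-fold and Ncaph2 1.346-fold.

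The medians of the other lists lay nearer to 0. Among all tested genes 7.96% were called lower, and 1 lower gene in a list of 9 or 10 is near that share. Of 13 APC/C core subunits 2 were lower, Cdc23 1.34-fold and Cdc26 1.274-fold, with a median log2 ratio of -0.19. The deposited interval of Cdc23 is the same as that of Kif20a, and the authors' deposited table called 0 of the 13. Of 10 cohesin genes 3 were lower, Rad21, Smc1a and Smc3 at 1.428-, 1.291- and 1.286-fold, with a median of -0.06. Of 9 MuvB and E2F partner genes 2 were lower, Tfdp1 1.377-fold and Rbbp4 1.333-fold, with a median of 0.09. Of 10 regulators of Cdk1 activity 1 was lower, the inhibitory kinase Wee1, which averaged 5.85 ± 0.341 FPKM in cKO and 9.34 ± 2.02 FPKM in Control, and the median was -0.26. Of 9 abscission and contractile ring genes 1 was lower, the myosin heavy chain Myh10 at 1.365-fold, with a median of 0.07. Over the 113 tested genes of the 10 lists 0 were called higher by limma, 2 were higher at an unadjusted p under 0.05 (E2f4 and Chmp2a), and the authors' deposited table called 0 higher. Whether these lists differ from the 60 genes was not tested.

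**Figure D5:**
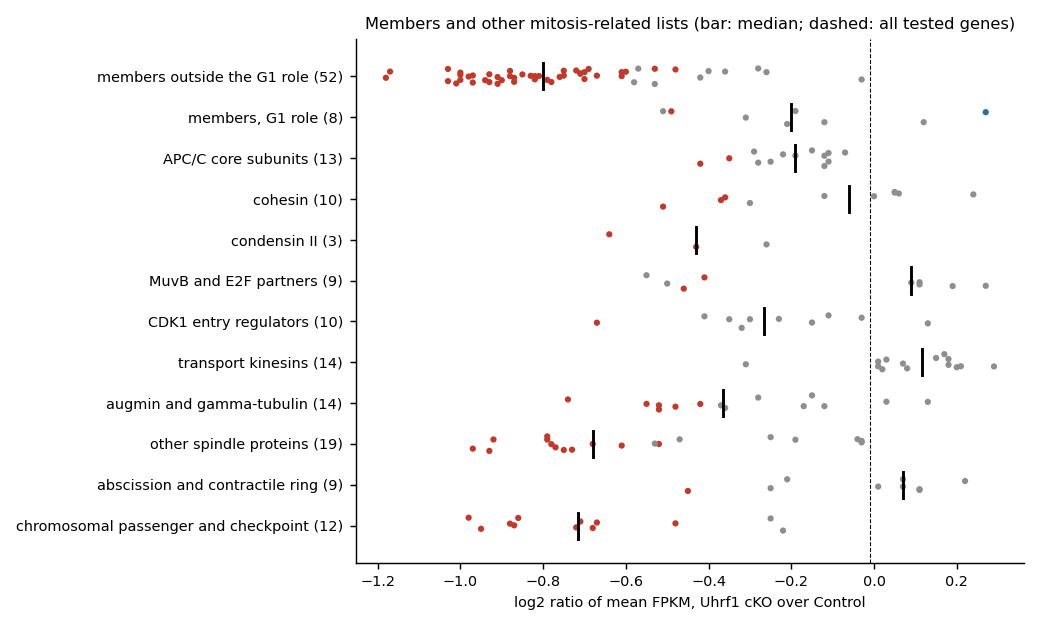
Log2 ratio of mean FPKM, Uhrf1 cKO over Control, for the members and for 10 further lists (tested genes in brackets). Each point is a gene, red if called lower and blue if called higher, black bars are medians, and the dashed line is the median of all tested genes, -0.01. Medians run from -0.80 for the members outside the G1 role to 0.12 for the transport kinesins.

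Spearman's rho between the log2 ratio and the Control level was -0.335 across the 60 members and -0.516 across the 52 outside the G1 role. These genes share all libraries, the Control level is itself part of the ratio, and low values are less precise. Of the 60 deposited intervals 16 overlap another listed gene, and no source states how reads were shared among them.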

How the data were processed

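RNA was sequenced from 3 Uhrf1 cKO and 3 Control libraries. The kit kept strand, per the labels' protocols. TopHat, mm10 and Cufflinks come from the series text and the submitters' processing notes, which name no version, annotation, strand setting or scaling. The authors deposited 1 table of 23351 genes with FPKM per library and group means of FPKM. Further deposited columns, named in the header, are a log2 fold change (cKO over Control), a score (test statistic), a p-value and a q-value. The deposited means differed from those recomputed by at most 0.00667 FPKM. Another 1 line was empty and is not reported here. Interval starts in the table count from 0 and are printed counted from 1. All 60 members are protein-coding in GENCODE M21.

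A count test cannot use FPKM, depth is unknown, and low values are less precise. None of 10 housekeeping genes was at 0 in any library. The filter kept 11911 genes that reached 1 FPKM in at least 2 libraries. On log2(FPKM + 1) values of these, limma 3.58.1 (R 4.3.3, trended and robust variances) gave two-sided p-values, adjusted by Benjamini-Hochberg over all 11911 and called under 0.05. Differences on that scale understate changes of low genes. Folds are ratios of group mean FPKM. The test was also run on simulated data. The labels do not say that libraries came from separate mice, so p-values measure the spread between these samples, which may be technical.

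The members, lists, roles, motifs and alternatives were chosen with earlier results of these data known. Named are all members, with values per library for up to 4 called genes per role by fold (6 kinesins), all genes not called lower and 6 set genes, and up to 3 called genes of each other list. Lists are described by counts and medians beside all tested genes. The alternatives were other filters, pseudocounts, thresholds and scalings, a replicate block, a Ddx3y covariate, each library left out and the deposited q-value. The macrophage marker Adgre1 was not analysed here, and 1 further marker list is not reported here.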

Additional observations from a re-analysis of the deposited data

How the results depend on the processing

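The count of members lower in cKO, 43, ranged from 33 to 49 under every alternative except a minimum log2 difference of 1, which left 3 lower and 0 higher (75 lower and 431 higher over all tested genes, against 948 and 1168). It was 42 after upper-quartile and 43 after median-ratio scaling, and leaving out each library gave 37 to 45. The 1 higher member, Ccnd2, was not called (0 higher) at a threshold of 0.01, at a minimum log2 difference of 0.5, with a covariate for the Y-linked transcript Ddx3y, by the authors' deposited q-value, or without 5 of the 6 libraries (0 to 1). Over all tested genes, 377 lower and 647 higher were called at a threshold of 0.01 and 517 lower at a minimum log2 difference of 0.5. Leaving out each library gave 502 to 930 lower and 775 to 1089 higher. The lower counts without cKO 1, 2 and 3 were 598, 629 and 502, and the higher count without cKO 3 was 775. The cause was not tested, beyond there being fewer samples or a stricter rule. Fzr1, which was not called, changed sign without cKO 3, Control 1 or Control 2 (log2 differences -0.03, -0.19 and -0.03, in a range of -0.19 to 0.28 over all 6 libraries left out in turn) and in the deposited table (-0.03). When each library was left out, the median log2 ratio was -0.828 to -0.70. The count of lower members whose groups did not overlap was then 49 to 53, against 49 with all libraries. Leaving out a library cannot reduce that count, so it is no check of it.

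With the replicate number as a block, 44 members were lower and 1 higher, and 946 and 1151 of all tested genes. Under the block Ccne2 was no longer called (limma adjusted p = 0.0648), while Kifc1 (0.0451) and Espl1 (0.0498) were. Ccne2 also lost its call with no filter (0.0691), upper-quartile scaling (0.054), a pseudocount of 0.1 (0.0506) and the Ddx3y covariate (0.115), which also ended the calls of Nek2 (0.0538) and Ccnd2 (0.0929). Kif18b lost its call with no filter (0.0549). The labels do not say that same-numbered libraries are paired. Their deviations correlated at 0.169, 0.0258 and -0.0443, which cannot settle the question with 3 libraries a group. With 3 libraries a group and FPKM alone, the smallest difference called lower among the members was -0.43, for Ccne2.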
